A study of Homo sapiens with 3 samples.

Results

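The genes that encode the enzymes which place or remove methyl and acetyl groups on histones were examined for how much histone H3.3 and how much H3.1/H3.2 lay at their promoters and along their bodies in MDA-MB-231 LM2 cells, a human breast cancer line. The genes were taken by family name, in a choice made with earlier results of these data known. Of 21948 gene symbols that the authors had assigned to chromatin regions, 65 matched the KDM, KMT2, KMT5, SETD, HDAC, KAT, PRMT and SIRT families, NSD1, EP300 or CREBBP. They comprised 30 writers, which add a group, and 35 erasers, which remove it. The writers were 16 lysine methyltransferases, 8 arginine methyltransferases and 6 acetyltransferases, and the erasers were 17 lysine demethylases, 11 HDAC deacetylases and 7 sirtuins. SETD8 is the older symbol of KMT5A, and several members carry a family name without a proven histone substrate, such as SETD3, which methylates actin.

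LM2 cells are a lung-tropic, highly metastatic derivative of the triple-negative line MDA-MB-231, and they were profiled by chromatin immunoprecipitation and sequencing. Chromatin amounting to 30 µg was precipitated with 4 µg of antibody against H3.1/H3.2 in 1 library and with 6 µg of antibody against H3.3 in the other. An input DNA library made the series 3 samples, and it was not analysed here. The labels call the cells clones and state no treatment, and whether they carried the GFP hairpin (shGFP) that the column headers of the table mention is not settled by the sample labels. With 1 library per antibody no replicate error can be given, so there are no p-values, and every 95% interval covers counting error only. In the 67965 regions used, an estimated 5897938 tags came from the H3.1/H3.2 library and 7332517 from the H3.3 library; the total depth of either library is unknown. No source used here states how the heights of 1 library were scaled to those of the other, so a fold above or below 1 holds relative to the deposited scaling.

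H3.1 and H3.2 are placed mainly behind the replication fork, whereas H3.3 replaces nucleosomes throughout the cell cycle and is known to collect at active promoters, enhancers and transcribed genes. Writers and erasers act on the tails of all of these histones. KMT2 and SETD1 enzymes methylate H3K4 near gene starts, and KDM1 and KDM5 enzymes remove methyl groups from that residue. SETD2 methylates H3K36 along transcribed bodies, and KDM2 and KDM4 enzymes demethylate that residue, though not all at the same methylation state. Acetyltransferases are opposed by HDACs and sirtuins.

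The promoter sequences of 4 members are shown because their promoter regions covered the printed bases in full and stood among the lowest folds of H3.3 (KDM4D, PRMT7), the tallest in H3.3 (SETD7) or the highest folds (SIRT4). Each runs from 250 bases before to 50 bases after the RefSeq gene start (GRCh38.p14), and capitals mark CpG dinucleotides. KDM4D lies on the plus strand at chr11:94973459-94973758 and PRMT7 on the plus strand at chr16:68310769-68311068, and both had more H3.1/H3.2 than H3.3. SETD7 lies on the minus strand at chr4:139556170-139556469 and SIRT4 on the plus strand at chr12:120291939-120292238, and both had more H3.3.
KDM4D: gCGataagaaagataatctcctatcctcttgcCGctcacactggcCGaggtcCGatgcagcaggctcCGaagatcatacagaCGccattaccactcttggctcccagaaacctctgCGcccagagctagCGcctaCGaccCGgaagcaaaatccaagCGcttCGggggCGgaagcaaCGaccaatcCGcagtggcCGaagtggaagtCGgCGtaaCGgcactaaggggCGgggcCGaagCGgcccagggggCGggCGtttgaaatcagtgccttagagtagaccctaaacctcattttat
PRMT7: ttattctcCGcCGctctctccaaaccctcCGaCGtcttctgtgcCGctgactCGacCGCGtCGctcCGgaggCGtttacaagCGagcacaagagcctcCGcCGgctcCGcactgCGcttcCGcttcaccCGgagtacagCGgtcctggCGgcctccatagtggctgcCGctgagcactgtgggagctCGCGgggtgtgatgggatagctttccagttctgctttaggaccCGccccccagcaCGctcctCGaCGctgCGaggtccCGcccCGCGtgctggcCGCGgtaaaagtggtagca
SETD7: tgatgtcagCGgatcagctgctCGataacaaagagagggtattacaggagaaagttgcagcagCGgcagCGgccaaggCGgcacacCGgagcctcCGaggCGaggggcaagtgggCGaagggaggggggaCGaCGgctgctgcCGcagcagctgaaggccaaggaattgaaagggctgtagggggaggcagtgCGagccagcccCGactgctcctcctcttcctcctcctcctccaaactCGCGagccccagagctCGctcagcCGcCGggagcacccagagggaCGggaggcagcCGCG
SIRT4: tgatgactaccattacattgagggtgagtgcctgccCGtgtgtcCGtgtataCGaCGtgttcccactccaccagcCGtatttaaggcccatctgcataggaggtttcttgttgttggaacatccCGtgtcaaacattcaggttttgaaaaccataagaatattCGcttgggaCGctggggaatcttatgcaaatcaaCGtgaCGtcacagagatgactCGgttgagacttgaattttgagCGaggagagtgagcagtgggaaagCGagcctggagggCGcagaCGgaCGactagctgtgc
KDM4D held 24 CpGs, PRMT7 33, SETD7 22 and SIRT4 16, so the promoter with the highest fold of these 4 was the poorest in CpG. Over the 53 members with a RefSeq promoter of this kind the median was 30 CpGs against 14 over all 34796 promoters of the table, and the median GC content was 68.7% against 58.7%. The GC box GGGCGG, the core of SP and KLF factor sites, occurred on either strand in 39 of the 53 (73.6%, against 44.9% of all promoters). The ETS core CCGGAAG occurred in 10 (18.9% against 10.2%) and the CCAAT box, of the letters CCAAT, in 18 (34.0% against 34.6%). The TATA box letters TATAAA were found in 0 of the 53, and in 11.6% of all promoters. These are matches of letters in these windows, searched on both strands. The number of CpGs and the promoter log2 ratio defined below had a Spearman's rho of 0.23 across the 53 genes. This is a description, since genes are not replicates. For several genes, such as KDM2A, KMT2A and SETD3, the window lay wholly outside the region that gave the ratio. Their CpGs and their ratios thus describe different places.

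At their promoters most modifier genes carried more H3.3 than H3.1/H3.2, about as often as genes in general. The promoter value of a gene is that of the authors' region nearest its start within the window they used for promoters, from 7500 bases upstream to 2500 downstream, and the fold is the ratio of the mean pileup heights of both libraries. A promoter region was present for 57 members, in 57 separate regions, of which 37 covered the start and 56 lay within 1000 bases of it. The interval of the fold lay above 1 in 38 members (66.7%, against 67.5% of 17529 genes), below 1 in 4 (7.02%, against 15.2%), and included 1 in 15. With both libraries scaled to the same number of tags, 32 lay above and 9 below (55.7% and 21.8% of all genes), and with the highest in place of the mean heights 22 lay above and 0 below (38.7% and 2.25%), with wider intervals on smaller numbers. The median log2 ratio of both heights (H3.3 divided by H3.1/H3.2), taken with a pseudocount of 1 and so understated at low heights, was 1.01 (quartiles 0.27 and 1.32) against 0.89 over all genes and 0.83 over protein-coding genes. By the authors' calls, 33 promoter regions were present in H3.3 alone (57.9%, against 57.6%), 21 in both (36.8%, against 31.3%) and 3 in H3.1/H3.2 alone (5.26%, against 11.1%). A CpG island lay in 52 of the 57 regions (91.2%, against 73.5% of all genes and 84.3% of protein-coding genes). The median log2 ratio of these 52 was 0.96 against 0.86 over all genes with such a promoter.

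**Figure D1:**
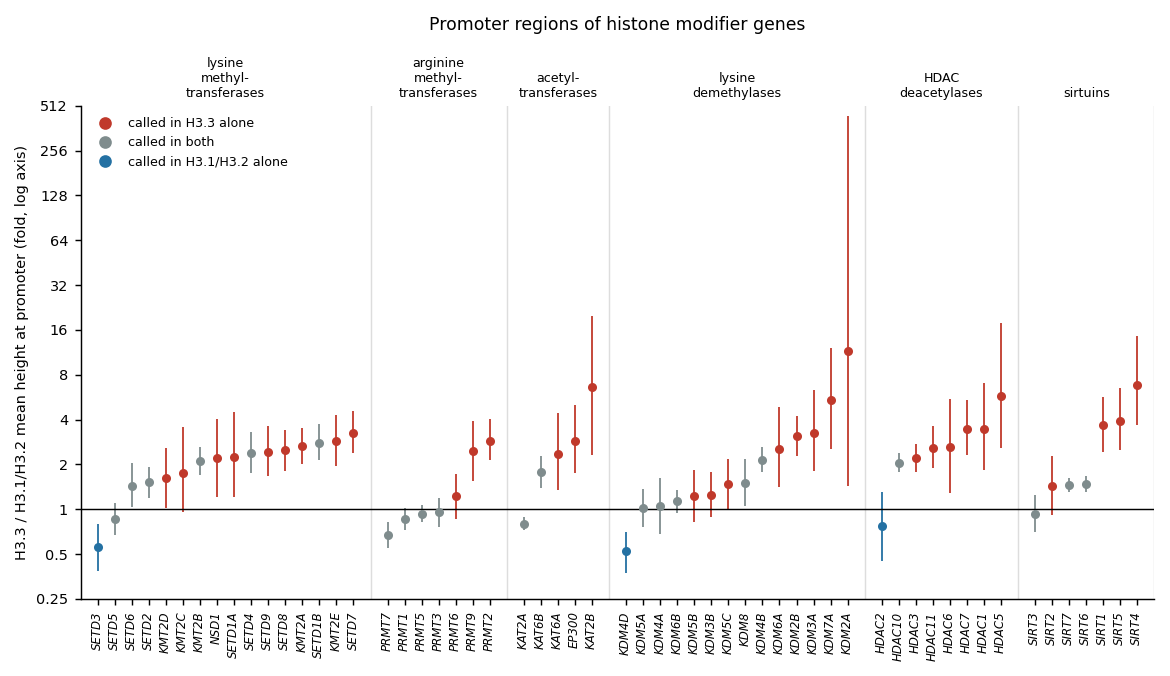
Promoter fold in mean height, H3.3 divided by H3.1/H3.2 (log axis), for the 57 histone modifier genes with a promoter region, by enzyme class, with exact 95% counting intervals; colour gives the ChIP in which the region was called. Of the 57 intervals 38 lie above the line at 1 and 4 below it, and the interval of KDM2A is the widest because its region holds an estimated 1 tag of H3.1/H3.2.

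Among the lysine methyltransferases 13 of 16 promoters had an interval above 1 (81.25%, against 67.5% of all genes), and the class median of the log2 ratio was 1.04. SETD7, an H3K4 monomethyltransferase that also modifies many other proteins, had the tallest H3.3 signal of the 57 promoters, with a mean height of 23.8 in H3.3 and 7.32 in H3.1/H3.2 (3.25-fold, 2.38 to 4.55). The other 3 of the highest 4 folds in this class were those of KMT2E, SETD1B and KMT2A. KMT2E stood at 8.27 in H3.3 and 2.88 in H3.1/H3.2 (2.87-fold, 1.94 to 4.31). SETD1B stood at 14.2 and 5.07 (2.80-fold, 2.14 to 3.74), and KMT2A at 16.7 and 6.27 (2.66-fold, 2.01 to 3.51). KMT2B at 2.11-fold (1.71 to 2.61) and SETD4 at 2.37-fold (1.74 to 3.29) were also higher in H3.3, although their regions were called in both ChIPs.

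The lower end of the class held SETD3, SETD5, SETD6 and SETD2. SETD3 was the opposite of SETD7, with 6.95 in H3.3 and 12.5 in H3.1/H3.2 (0.55-fold, 0.39 to 0.79) in a region called in H3.1/H3.2 alone at chr14:99481400-99482999, which is also assigned to the neighbouring cyclin gene CCNK. SETD5 had a fold of 0.86 (0.67 to 1.10), but its value rests on which region counts as nearest: at almost the same distance on the other side of its start, the region at chr3:9396800-9397599, called in H3.3 alone, had a fold of 3.65 (2.14 to 6.76). SETD6, which methylates non-histone proteins, stood at 1.44-fold (1.03 to 2.03) and SETD2, which places H3K36 trimethylation, at 1.52-fold (1.20 to 1.93).

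The arginine methyltransferases were the class with the lowest promoter median, a log2 ratio of -0.063. They had an interval above 1 in 2 of 7 (28.6%, against 67.5% of all genes). PRMT7, which monomethylates arginine, had 6.93 in H3.3 and 10.3 in H3.1/H3.2 (0.67-fold, 0.55 to 0.83). PRMT1, the main enzyme of asymmetric dimethylation, was at 0.86-fold (0.73 to 1.02), PRMT5, the main enzyme of symmetric dimethylation, at 0.93-fold (0.81 to 1.06) and PRMT3, whose known substrate is a ribosomal protein, at 0.95-fold (0.76 to 1.18). All 3 of these intervals included 1. PRMT6, which methylates arginine 2 of H3, had high signal of both kinds, 12.5 in H3.3 and 10.2 in H3.1/H3.2 (1.22-fold, 0.86 to 1.72). PRMT2 at 2.89-fold (2.14 to 4.02) and PRMT9 at 2.46-fold (1.54 to 3.92) were the members above 1. The promoter regions of this class were also longer, with a median of 4799 bases against 1999 over the 57, and those of PRMT1 and PRMT5 were each assigned to 5 genes; the part of region length in the class median was not tested.

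Among the acetyltransferases 1 pair of paralogs had opposite promoter folds, KAT2A and KAT2B, the alternative acetyltransferases of the SAGA and ATAC complexes. KAT2B stood at 16.8 in H3.3 and 2.54 in H3.1/H3.2 (6.64-fold, 2.31 to 19.8) in a region of 399 bases at chr3:20039800-20040199 assigned to KAT2B alone. KAT2A stood at 9.26 and 11.6 (0.80-fold, 0.72 to 0.89) in a region of 16399 bases at chr17:42121000-42137399 that is also assigned to DHX58, HSPB9 and RAB5C, so its value is shared by 4 genes. EP300, the acetyltransferase of enhancers and promoters, was at 2.86-fold (1.74 to 5.02), and the related KAT6A and KAT6B were at 2.36-fold (1.35 to 4.40) and 1.78-fold (1.39 to 2.28).

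Of the lysine demethylases 7 of 14 promoters had an interval above 1, a lower share than the 67.5% of all genes. The median log2 ratio was 0.51, against 0.89 over all genes. Opposite values again met within the class. KDM7A, which acts on H3K9 and H3K27, had 17.7 in H3.3 and 3.27 in H3.1/H3.2 (5.43-fold, 2.53 to 12.1), KDM3A, an H3K9 demethylase, 13.8 and 4.28 (3.22-fold, 1.80 to 6.27), and KDM2B, an H3K36 demethylase that binds unmethylated CpG islands, 10.05 and 3.25 (3.09-fold, 2.28 to 4.23). KDM2A, the paralog of KDM2B, had the largest fold of all 57 promoters, but on an estimated 10 tags of H3.3 and 1 of H3.1/H3.2 in a region of 199 bases (11.5-fold, 1.42 to 434).

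KDM4D, an H3K9 demethylase known from testis, had the lowest fold of the 57, with 3.93 in H3.3 and 7.57 in H3.1/H3.2 (0.52-fold, 0.37 to 0.71). Its region at chr11:94970400-94973999, a call of the H3.1/H3.2 ChIP alone, is also assigned to CWC15. KDM5A and KDM6B, which remove H3K4 and H3K27 methylation, and KDM4A, which acts on H3K9 and H3K36, were near equality at 1.02-fold (0.76 to 1.36), 1.13-fold (0.94 to 1.34) and 1.05-fold (0.68 to 1.62). Of the paralogs of KDM4A and KDM4D, KDM4B had 15.5 in H3.3 and 7.18 in H3.1/H3.2 (2.15-fold, 1.78 to 2.60). KDM8 stood at 1.51-fold (1.05 to 2.16).

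The HDAC genes had the highest class median, a log2 ratio of 1.13, and an interval above 1 in 7 of 8 (87.5%, against 67.5% of all genes). HDAC5, a deacetylase that shuttles between nucleus and cytoplasm, led with 13.7 in H3.3 and 2.39 in H3.1/H3.2 (5.75-fold, 2.58 to 17.9). The nuclear enzyme HDAC1 was at 3.47-fold (1.84 to 6.99) and HDAC7 at 3.44-fold (2.32 to 5.38), and HDAC11 followed at 2.59-fold (1.88 to 3.62). None of the 3 regions of HDAC1, HDAC7 and HDAC11 held a CpG island in the authors' annotation, in contrast to 52 of the 57 members. All 3 regions lay outside the window from 250 bases before to 50 after the RefSeq start. That window held 28, 33 and 30 CpGs, so the missing island describes the region and not the start. HDAC6, the tubulin deacetylase, was at 2.61-fold (1.29 to 5.52), HDAC3, the NCOR-bound enzyme, at 2.2-fold (1.77 to 2.73) and HDAC10 at 2.04-fold (1.77 to 2.37). The value of HDAC3 rests on which region counts as nearest. Its adjoining region at chr5:141633600-141636799, called in H3.1/H3.2 alone, had a fold of 0.35 (0.24 to 0.49). A second HDAC1 region, also called in H3.1/H3.2 alone, had a fold of 0.51 (0.23 to 1.04). Of all 15 promoter regions of the class, 3 had a log2 ratio below 0. HDAC2, which shares complexes with HDAC1, was the exception among the nearest regions. It had 6.07 in H3.3 and 7.87 in H3.1/H3.2 (0.77-fold, 0.45 to 1.31) in a region called in H3.1/H3.2 alone.

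The 7 sirtuin promoters fell into a high and a low set. SIRT4, SIRT5 and SIRT1 had H3.3 heights of 14.4, 20.3 and 11.1 over H3.1/H3.2 heights of 2.11, 5.22 and 3.05. Their folds were 6.85 (3.70 to 14.6), 3.90 (2.48 to 6.55) and 3.65 (2.41 to 5.64). SIRT4 and SIRT5 act in mitochondria and SIRT1 in the nucleus, so the high set was not made of 1 compartment. The SIRT4 region also holds RNU4-1 and RNU4-2, genes of the U4 small nuclear RNA, whose near-identical copies elsewhere make the assignment of reads there uncertain. SIRT6 and SIRT7, both nuclear, were at 1.47-fold (1.30 to 1.66) and 1.46-fold (1.30 to 1.63) in regions of 10799 and 9199 bases with signal of both kinds. SIRT2 at 1.43-fold (0.91 to 2.27) and SIRT3 at 0.93-fold (0.71 to 1.24) included 1.

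**Figure D2:**
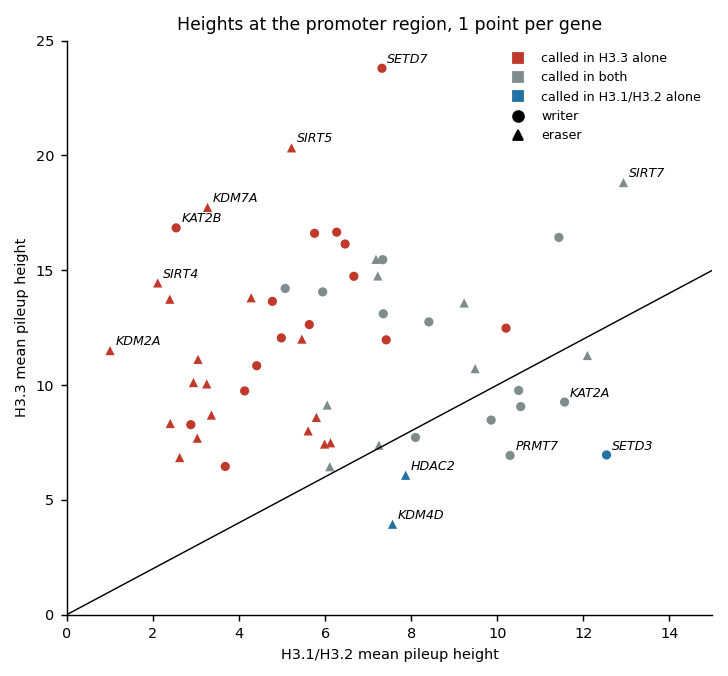
Mean pileup height of H3.3 (vertical) against H3.1/H3.2 (horizontal) at the promoter region of each of the 57 histone modifier genes, circles for writers and triangles for erasers; the line marks equal heights. SETD7 at 23.8 is the tallest in H3.3 and SIRT7 at 12.9 the tallest in H3.1/H3.2, and SETD3, PRMT7, KDM4D, HDAC2 and KAT2A are among the points under the line.

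The heights of both variants were hardly related across the 57 promoters (Spearman's rho -0.032, a description across genes that share both libraries). Region length moved with the ratio. Regions called in both had a median of 3999 bases and those called in H3.3 alone 1399, and the log2 ratio and length had a rho of -0.46 over members and -0.20 over all genes. Regions called in both were assigned to a median of 3 genes and those called in H3.3 alone to 2. A single gene was assigned to 14 of the 57, and in these 14 the median log2 ratio was 1.21.

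Writers and erasers overlapped at their promoters. The interval lay above 1 in 19 of 28 writers and 19 of 29 erasers (67.9% and 65.5%, against 67.5% of all genes), and both medians were 1.01. The quartiles were 0.18 and 1.21 for writers and 0.27 and 1.49 for erasers, so both sets overlapped over nearly their whole range. With CpG island promoters alone the medians were 1.04 in 27 writers and 0.52 in 25 erasers. The 4 erasers left out by this were HDAC1, HDAC7, HDAC11 and SIRT4, all with an interval above 1. The regions of HDAC1, HDAC7 and HDAC11 lay beside CpG-rich starts, as given above, so this subset depends on which region was nearest.

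**Figure D3:**
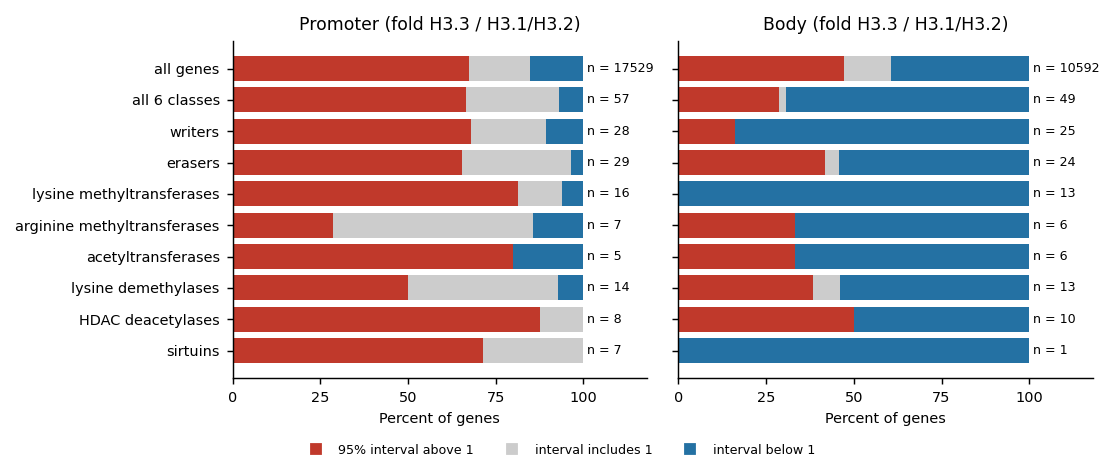
Percent of genes whose fold (H3.3 divided by H3.1/H3.2) has a 95% counting interval above 1, including 1 or below 1, at promoters (left) and along bodies (right), for all genes, the 65 modifier genes and their classes; n is the number of genes with such a region. Promoter shares of the modifier genes (66.7% above) resemble those of all genes (67.5%), while their body shares lean to H3.1/H3.2 (69.4% below, against 39.3%). By the sign of the body median, not drawn, the shares below 0 are 69.4% and 48.1%.

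Along their bodies the modifier genes carried more H3.1/H3.2 than H3.3, and more often than genes in general. The body value is the median log2 ratio over regions inside the gene and outside the promoter window, and the body fold uses the tags summed over these regions. Of 49 members with a body region, the interval of the fold lay below 1 in 34 (69.4%, against 39.3% of 10592 genes) and above 1 in 14 (28.6%, against 47.1%), and it included 1 in KDM5B. With both libraries scaled to the same number of tags 34 lay below and 8 above (46.7% and 39.6% of all genes), and with the highest in place of the mean heights 18 and 7 (22.6% and 31%). The interval included 1 in 1436 of the 10592 genes. Over protein-coding genes the share below 1 was 43.5%. By sign alone, the body median was below 0 in 34 members (69.4%), against 48.1% of all genes and 52.8% of protein-coding genes. The median log2 ratio was -0.57 over the 49 and 0.11 over all genes. Counted by region, 263 of 425 body regions were called in H3.1/H3.2 alone (61.9%, against 50.6% of the body regions of all genes) and 89 in H3.3 alone (20.9% against 34.0%).

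The number of body regions moved with this value. Members had a median of 4 body regions and all genes 2, and the body log2 ratio and that number had a rho of -0.29 over members and -0.32 over all genes. Among genes with at least 10 body regions, 13 of 14 members lay below 1 (92.9%, against 63.8%), and both medians were -0.60. Among genes with fewer, 21 of 35 members lay below 1 (60.0%, against 36.1%).

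The lysine methyltransferases were the most uniform class, with an interval below 1 in all 13 that had a body region. The share was 39.3% over all genes and 63.8% over genes with at least 10 body regions. This class had a median of 7 body regions and all genes 2. With the highest in place of the mean heights the count was 7 of 13, and the body median of SETD1B, -0.20 with mean heights, was 0.13. SETD3 had a body median of -0.97 and KMT2C, an H3K4 monomethyltransferase of enhancers, of -0.95, over 4 and 18 regions. SETD7, so high in H3.3 at its promoter, had 5 body regions between 20.3 and 44.9 kb from its start, and all were called in H3.1/H3.2 alone; their summed fold was 0.51 (0.42 to 0.62). SETD1A was the exception by median (0.73) but not by summed tags (0.85-fold, 0.79 to 0.92), since its 2 longest regions lay below 1; its start in the authors' annotation lies 9248.5 bases upstream of RefSeq's.

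The other members with the lowest body medians came from several classes. KDM3A had a single body region of 3599 bases, with 2.80 in H3.3 and 8.59 in H3.1/H3.2 (0.33-fold, 0.23 to 0.46), against 3.22-fold at its promoter. KDM5A stood at 0.40-fold (0.36 to 0.44) over 19 regions, each called in H3.1/H3.2 alone. KAT6A was at 0.41-fold (0.27 to 0.61) over 3 regions, PRMT3 at 0.39-fold (0.19 to 0.74) over 1, HDAC6 at 0.48-fold (0.36 to 0.64) over 3 and PRMT2 at 0.60-fold (0.54 to 0.66) over 8. EP300 stood in the middle of the members, with a body median of -0.57 and a summed fold of 0.66 (0.59 to 0.74) over 14 regions.

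H3.3-rich bodies were fewer, and HDAC5 was the clearest of them. It had 8 body regions covering 64.8% of the gene, all called in H3.3 alone, with 12.01 in H3.3 and 4.41 in H3.1/H3.2 (2.72-fold, 2.48 to 3.00). HDAC11 had 2 such regions (2.71-fold, 2.35 to 3.13), and KAT2B had 3, of which the 2 nearest its start were at 4.21-fold and 3.69-fold and the farthest, 109 kb away, at 0.60-fold. The HDAC genes as a class were split, with 5 bodies below 1 and 5 above. Over all genes 39.3% lay below 1 and 47.1% above, so a split was not particular to this class. KDM6B, with 3 regions over most of its length, had a fold of 1.23 (1.13 to 1.33) but a median log2 ratio of -0.030.

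A body signal without a promoter region was seen in 8 members, HDAC4, HDAC8, HDAC9, CREBBP, PRMT8, KDM1A, KDM1B and KDM4C. The body fold had an interval above 1 in 6 of them (75.0%, against 66.1% of genes without a promoter region). Most rested on 1 to 3 regions in a long gene. HDAC8, an X-linked deacetylase, had 1 region with 8.20 in H3.3 and 2.16 in H3.1/H3.2 (3.80-fold, 1.62 to 9.18). HDAC9 had 2 regions in 915592 bases of gene (2.61-fold, 1.56 to 4.35), PRMT8, known from brain, 2 adjacent ones (2.67-fold, 2.17 to 3.3), KDM4C 1 (2.62-fold, 1.40 to 5.29) and KDM1A, the H3K4 demethylase of the CoREST complex, 1 (1.84-fold, 1.05 to 3.36). Its paralog KDM1B was at 1.23-fold (1.02 to 1.5) over 3 regions. HDAC4 at 0.92-fold (0.87 to 0.97) over 36 regions and CREBBP, the paralog of EP300, at 0.77-fold (0.72 to 0.83) over 22 were the members below 1.

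Body intervals lay below 1 in 21 of 25 writers (84.0%) and 13 of 24 erasers (54.2%), against 39.3% of all genes. The medians were -0.59 and -0.31. The difference between writers and erasers was not tested. By region, 68.8% of 202 writer body regions and 55.6% of 223 eraser body regions were called in H3.1/H3.2 alone. Of the 8 members without a promoter region 6 were erasers. Among members with a promoter region the interval lay below 1 in 32 of 41 (78.0%, against 44.2%), and the medians were -0.60 in 23 writers and -0.60 in 18 erasers, with 20 (87.0%) and 12 (66.7%) intervals below 1. With CpG island promoters alone the medians were -0.60 in 22 writers and -0.69 in 15 erasers, with 19 (86.4%) and 11 (73.3%) intervals below 1. The share below 1 was thus the higher in writers in each of these sets, whereas the order of the medians turned in the last.

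Within the same gene the promoter stood above the body in H3.3 in most cases. A scaling factor between the libraries cancels in this difference except through the pseudocount. With a pseudocount of 10 in place of 1 the median difference was 0.63 and the promoter was higher in 85.4%. Of 41 members with both values the promoter log2 ratio was the higher in 36 (87.8%, against 71.2% of 8111 genes), and the median difference was 1.36 (quartiles 0.63 and 1.82) against 0.49 over all genes and 0.58 over protein-coding genes. A promoter above 0 together with a body below 0 was found in 27 (65.9%, against 34.3%). The number of body regions moved with these shares too. Among genes with at least 10 body regions the promoter was higher in 12 of 12 members, against 85.0% of 1105 genes. The median differences there were 1.35 and 0.94, and a promoter above 0 with a body below 0 was found in 83.3% against 50.6%. Among members with fewer body regions the promoter was higher in 24 of 29 (82.8%, against 71.2% of genes with any number of body regions). The promoter was higher in 20 of 23 writers (87.0%) and in 16 of 18 erasers (88.9%), against 71.2% of all genes. The median differences were 1.49 in writers and 1.28 in erasers. All 13 lysine methyltransferases had this order, against 71.2% of all genes and 85.0% of genes with at least 10 body regions.

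The widest differences on the log2 scale were 3.23 in KDM2A, 2.82 in KDM3A, 2.38 in SIRT1, 2.34 in SETD7 and 2.29 in PRMT2. SIRT1 went from 3.65-fold at its promoter to 0.53-fold (0.46 to 0.61) over 6 body regions, of which the nearest was centred 6.54 kb from the start. The promoter value of KDM2A rests on few tags, as given above. The opposite order was found in PRMT1 (-0.58), KAT2A (-0.50), KDM5B (-0.27), HDAC11 (-0.19) and PRMT7 (-0.17). The body values of PRMT1, KAT2A and KDM5B each came from 1 region, and those of PRMT1 and KAT2A hold promoters of other genes. HDAC5 and KAT2B were high in H3.3 at both places, and SETD3 and PRMT7 low at both.

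**Figure D4:**
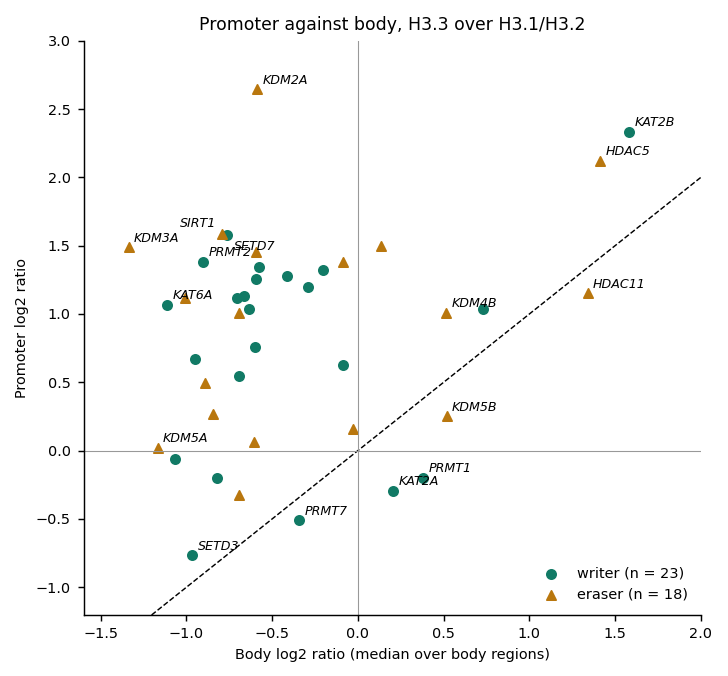
Promoter log2 ratio (vertical) against the median body log2 ratio (horizontal), H3.3 divided by H3.1/H3.2, for the 41 histone modifier genes with both, circles for 23 writers and triangles for 18 erasers; the dashed line marks equal ratios. Of the 41 points 36 lie above the dashed line and 27 in the upper left quadrant, with promoter above 0 and body below 0.

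The long genes showed how the variants were arranged along a body. In KDM5A and KDM3B, an H3K9 demethylase, all 19 and 19 body regions were called in H3.1/H3.2 alone, with summed folds of 0.40 (0.36 to 0.44) and 0.53 (0.48 to 0.58). SETD5 had 17 of 18 such regions and SETD2 24 of 28, and of the other 4 in SETD2 3 were called in both and 1 in H3.3 alone, a region 146 kb from the start, close to the end of the gene, with 13.5 in H3.3 and 5.58 in H3.1/H3.2 (2.42-fold, 1.89 to 3.1). No body region of KDM5A, KDM3B or SETD5 was the higher in H3.3.

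Other long genes were divided along their length. KDM2B carried H3.3 in the part nearer its start and H3.1/H3.2 in the part beyond. The median log2 ratio of its first 10 body regions was 0.50 and that of the remaining 11 was -0.57, the 7 regions called in H3.3 alone lay between 9.31 and 113 kb from the start, and the 11 called in H3.1/H3.2 alone between 69.1 and 176 kb. Its paralog KDM2A, with 31 body regions, had medians of -0.59 and -0.57 in the nearer and farther parts, although its 4 regions called in H3.3 alone also lay toward the start, between 25.7 and 47.3 kb in a body reaching 133 kb. HDAC4 held single H3.3 sites in a body otherwise lower in H3.3. Its highest region, at chr2:239245800-239249399 and 154 kb from the start, had 16.6 in H3.3 and 3.89 in H3.1/H3.2 (4.28-fold, 3.26 to 5.77), whereas 22 of its 36 regions were called in H3.1/H3.2 alone. KDM4B was the long gene that did not lie below 1. Its 29 body regions covered 66.98% of the gene, 18 of them calls of the H3.3 ChIP alone, and their summed fold was 1.57 (1.52 to 1.64).

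**Figure D5:**
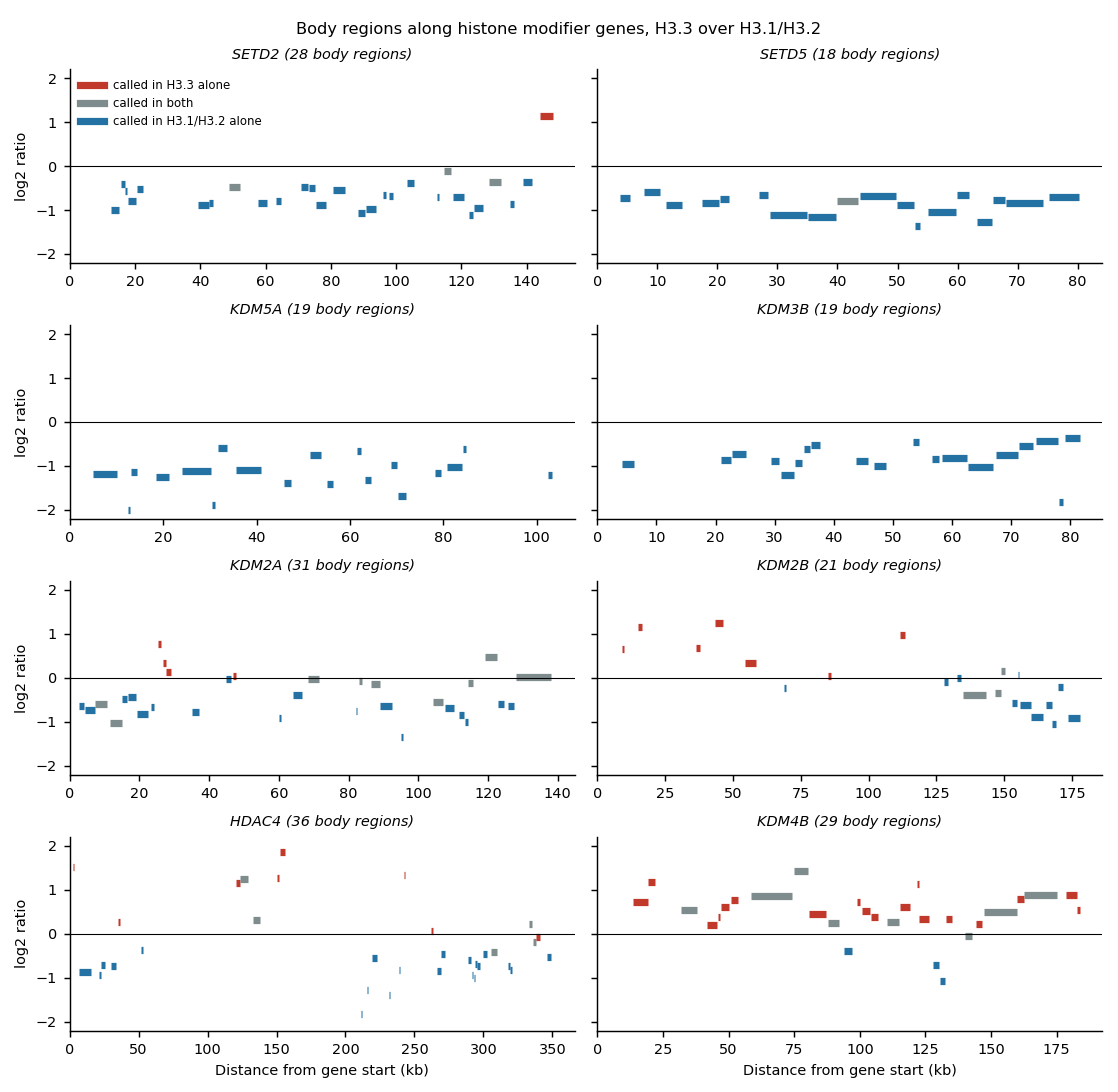
Log2 ratio (H3.3 divided by H3.1/H3.2) in each body region of 8 histone modifier genes, drawn to its length at its distance from the gene start in kb; colour gives the ChIP in which the region was called. KDM5A and KDM3B hold regions called in H3.1/H3.2 alone throughout, KDM2B changes from above 0 to below 0 along the gene, and KDM4B lies mostly above 0.

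Enzymes and partners that the family names leave out had a like pattern at bodies. Their shares of genes with the higher promoter were nearer that of all genes. Of 35 further histone methyl and acetyl enzymes 31 were found. The promoter interval lay above 1 in 17 of 28 (60.7%, against 67.5% of all genes) and below in 3 (10.7%, against 15.2%), with a median log2 ratio of 0.65 against 0.89, and the body interval lay below 1 in 16 of 27 (59.3%, against 39.3% of all genes), with a median of -0.66. EZH2, the H3K27 methyltransferase, was at 4.15-fold (2.70 to 6.45) at its promoter and 0.52-fold along its body. KAT7 and KAT8, both acetyltransferases of the MYST family, were low at promoters, at 0.62-fold (0.52 to 0.73) and 0.55-fold (0.41 to 0.72). All 39 listed subunits of the modifier complexes were found. Their promoter interval lay above 1 in 24 of 35 (68.6%) and below in 7 (20.0%), both near the shares of all genes, with a median of 0.58. Their body interval lay below 1 in 24 of 30 (80.0%, against 39.3% of all genes), with a median of -0.67. These subunits had a median of 7 body regions, the further enzymes 4 and all genes 2. Within the same gene the promoter was higher in 18 of 24 further enzymes (75.0%) and 19 of 26 subunits (73.1%). The share was 71.2% over all genes and 87.8% over members. RBBP5, a core subunit of the KMT2 complexes, was at 0.43-fold (0.34 to 0.53) at its promoter, whereas the other core subunits stood above 1, WDR5 at 1.93-fold (1.33 to 2.84), ASH2L at 1.31-fold (1.05 to 1.63) and DPY30 at 3.67-fold (1.78 to 7.68). RCOR2, a CoREST subunit, was at 5.41-fold (2.86 to 10.3).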

How the data were processed

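ChIP libraries of the LM2 line were sequenced as 75 nt single-end reads, per the labels' protocols. BWA, SICER and hg38 are named, per the submitters' processing notes; no source used here gives their versions or settings. The authors deposited 1 table of merged regions that holds a pileup signal (mean and highest height in each ChIP), a log2 ratio and calls, CpG islands, promoters and genes, per the file headers. The deposited log2 ratio equalled the ratio of mean heights to within 8.9e-16. The input was not analysed here.

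From 67969 regions 4 on chromosome Y were left out. Tags were estimated as length times mean height over 224, a constant recovered from the table. If heights had been scaled, tags and intervals would be off by that factor. Folds are plain ratios of mean heights with exact conditional 95% intervals on tags; reads had no molecular identifiers, so these cover counting error only. Log2 ratios are log2((H3.3 + 1)/(H3.1/H3.2 + 1)). The promoter window was recovered from the table and gave the authors' promoter mark in 100% of 36810 single-gene regions. Region coordinates are the deposited ones. Promoter sequences are RefSeq's. Interval calls were run on simulated Poisson counts, the model that the intervals assume. This checked the calculation only and cannot speak to error between libraries.

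The members and lists were chosen with earlier results of these data known. Genes were named by rule: in each class the 4 highest and 4 lowest promoters, promoters not called in H3.3 alone, genes without a promoter region, the 8 highest and 8 lowest bodies, and the 5 widest differences in each direction. Other genes with at least 10 body regions, SETD1A, and those of the further lists were named after their values were seen. Python 3.11.15, pandas 2.3.3, scipy 1.17.1 and matplotlib 3.10.9 were used.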

Additional observations from a re-analysis of the deposited data

How the results depend on the processing

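No paired analysis was possible because each antibody had 1 library. The alternatives were pseudocounts of 0.1 and 10, highest heights, regions of at least 1000 bases, centring on regions called in both, other definitions of promoter and body, and subsets of members. Body regions without a promoter, promoter regions assigned to 1 gene and equal total tags were added after seeing the data. Centring moved log2 ratios by 0.022 and equal total tags by 0.31. A pseudocount of 10 gave medians of 0.48 at promoters, -0.25 along bodies and 0.63 for their difference. With all promoter regions of a gene combined the promoter median was 0.66 and 10 promoters lay below 1. With equal total tags the medians were 0.70 at promoters and -0.89 along bodies, with 9 promoters below 1 and 8 bodies above 1. With highest heights 22 promoters lay above 1 and 0 below, and 7 bodies above and 18 below, of which 11 were writers, 7 of them lysine methyltransferases, and 7 erasers. The share of genes with the higher promoter was between 80.5% and 91.9% under every alternative run. The eraser median was the lower at bodies only with CpG island promoters alone, by 0.095. Of 729 log2 ratios of single named genes under the alternatives, 605 stayed within or near their counting interval, 113 moved further and 11 changed sign from a value whose interval excluded 1. The last were, with highest heights, the promoters of KAT6B (-0.096) and SIRT6 (-0.17) and the bodies of KAT2A (-0.054), KDM6B (0.35), PRMT1 (-0.093) and SETD1B (0.13); with all promoter regions, KMT2B (-0.33); with equal total tags, the bodies of HDAC7 (-0.18) and KAT2A (-0.11); and the body of KDM6B with regions of at least 1000 bases (0.37) or length-weighted heights (0.27). For the body of KDM6B the main median was below 0 while the interval of its summed fold lay above 1. Its changes of sign thus went to the side of that interval. The cause of the changes of sign was not tested. Depth limits the short regions most, as the interval of KDM2A from 1.42 to 434 shows.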
